A study of Mus musculus with 20 samples.

Results

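The xenobiotic receptors CAR (gene Nr1i3) and PXR (gene Nr1i2) were examined in mouse liver together with 8 cytochrome P450 genes of the Cyp2b and Cyp3a subfamilies, Cyp2b9, Cyp2b10, Cyp2b13, Cyp3a11, Cyp3a13, Cyp3a16, Cyp3a25 and Cyp3a41a. These 10 genes were taken by symbol from the 45306 genes of the expression table. The study sequenced liver mRNA of 20 C57BL/6 mice in 4 groups of 5. The Control and CE groups were wild type. The Sirt2-/- and Sirt2-/-/CE groups carried a whole-body CRISPR knockout of Sirt2, an NAD-dependent deacetylase, for which exons 5 to 7 were chosen as the target. The CE and Sirt2-/-/CE mice were cooled intermittently at 4 °C, for 3 h a day over 3 weeks, and the other mice were kept at room temperature. The labels give neither the sex nor the hour of collection, and they do not say that the 5 libraries of a group came from separate litters or cages. Each library is taken here as 1 mouse and numbered 1 to 20 as in the table, so that p-values cover the spread between these libraries.

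CAR and PXR are nuclear receptors of hepatocytes that sense drugs, bile acids and steroids. Each binds DNA as a partner of the retinoid X receptor (RXR) and switches on P450 enzymes, conjugating enzymes and transporters that clear such compounds. Cyp2b10 is the classical CAR target of mouse liver and Cyp3a11 the classical PXR target. Cyp2b9, Cyp2b13, Cyp3a16, Cyp3a41a and Cyp3a44 are known for higher expression in female than in male adult liver, where growth hormone pulses and not xenobiotics set the difference.

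The Cyp2b genes lie together on chromosome 7 and the Cyp3a genes on chromosome 5, by the GENCODE annotation of GRCm38, the build (mm10) named in the submitters' processing notes. All 3 Cyp2b genes have 9 exons and run on the forward strand: Cyp2b10 at chr7:25897620-25926624, Cyp2b13 at chr7:26061497-26096197 and Cyp2b9 at chr7:26173411-26210661. They sit 2.56 to 2.84 megabases from the targeted Sirt2 gene at chr7:28766735-28788661, on the same chromosome. Cyp3a11, the main Cyp3a gene, has 13 exons on the reverse strand at chr5:145854426-145879964. Nr1i3 lies at chr1:171213970-171220701 and overlaps Tomm40l on the opposite strand. Whether reads were counted by strand is not given in the sources used here. Reads from the bases that those 2 genes share may therefore be uncertain between them, and the extent of that overlap was not examined. Nr1i2 lies at chr16:38248323-38294824 with no overlapping gene.

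The promoters of the 3 Cyp2b genes are shown because Cyp2b9 and Cyp2b13 were correlated from mouse to mouse, as described further on. Each line gives the 250 bases before the RefSeq start of GRCm38.p6, 5′ to 3′ on the forward strand, at chr7:26173159-26173408, chr7:26061245-26061494 and chr7:25897408-25897657 in turn. Capitals mark matches, on either strand, to the nuclear receptor half-sites AGGTCA and AGTTCA, the D-box TTATGNAA of Dbp and its relatives, and the STAT5 motif TTCNNNGAA.
Cyp2b9: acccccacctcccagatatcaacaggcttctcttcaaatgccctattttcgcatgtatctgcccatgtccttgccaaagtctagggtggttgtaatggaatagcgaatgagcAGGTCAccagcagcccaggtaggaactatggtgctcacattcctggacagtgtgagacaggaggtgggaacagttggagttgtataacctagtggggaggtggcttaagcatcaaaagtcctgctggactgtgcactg
Cyp2b13: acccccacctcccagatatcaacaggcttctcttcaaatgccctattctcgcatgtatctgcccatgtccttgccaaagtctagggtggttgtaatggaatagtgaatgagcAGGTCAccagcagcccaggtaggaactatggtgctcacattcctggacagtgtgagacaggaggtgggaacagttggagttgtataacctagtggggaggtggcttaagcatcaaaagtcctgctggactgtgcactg
Cyp2b10: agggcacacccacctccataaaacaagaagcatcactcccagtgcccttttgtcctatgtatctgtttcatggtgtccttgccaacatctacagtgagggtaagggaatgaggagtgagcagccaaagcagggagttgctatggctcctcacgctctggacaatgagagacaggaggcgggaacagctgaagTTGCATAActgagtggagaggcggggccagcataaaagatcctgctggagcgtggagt

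The Cyp2b9 and Cyp2b13 windows were identical at 248 of 250 bases. Their 2 differences, read from Cyp2b9 to Cyp2b13 and counted from the first base shown, were T48C and C104T. The Cyp2b10 window matched each of them at 177 of 245 aligned bases (72.2%). Cyp2b9 and Cyp2b13 both held AGGTCA starting 138 bases before the start, a motif found in the same window of 14% of the 32851 promoters in the table. Cyp2b10 held a D-box match 58 bases before its RefSeq start, which 3.07% of the promoters had. Its window ends at chr7:25897657, past the GENCODE start of Cyp2b10 at chr7:25897620, so the match lies closer to the GENCODE start. AGTTCA (11.8% of promoters) and the STAT5 motif (7.02%) were in none of the 3 windows. Among the other members, Cyp3a11 and Cyp3a25 held AGGTCA and Cyp3a11 and Cyp3a41a held AGTTCA. The windows of both receptor genes held none of the 4 motifs.

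Over aligned bases, the coding transcripts of Cyp2b9 and Cyp2b13 were 89.3% identical, less than their promoter windows, those of Cyp2b9 and Cyp2b10 86.3% and those of Cyp3a11 and Cyp3a41a 94.7%. Of all 100-base windows of a transcript, 1.18% were shared exactly between Cyp2b9 and Cyp2b13 and none between either and Cyp2b10. Of the Cyp3a41a windows 90.8% were also in Cyp3a41b or Cyp3a44, so its reads are uncertain between these 3 genes. Of the Cyp3a25 windows 6.05% were also in Cyp3a59.

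The libraries held 35499796 to 53917339 counts, with a median of 41883741. Sirt2 counts scaled to 1e+06 per library (CPM, on library sizes scaled by edgeR's TMM method) were 40.2 to 56.2 in the 10 wild-type mice and 16.9 to 27.5 in the 10 knockout mice, so every knockout library lay below every wild-type library. Hepatocyte markers were abundant in all mice, and the markers of lymphocytes, neutrophils, exocrine pancreas and skeletal muscle each summed to at most 9.64 CPM in any mouse. Of the other liver cells, the 3 markers of sinusoidal endothelium summed to 88.3 to 139 CPM in Sirt2-/-/CE and 20.1 to 80.4 CPM in CE, and the 3 of Kupffer cells, the liver macrophages, to 202 to 334 and 73.1 to 283 CPM. All 6 had an unadjusted p under 0.05 in Sirt2-/-/CE against CE, where 6.09% of all genes passed, and also, on the higher side, in the genotype difference averaged over both treatments, where 13.8% passed. None was called by edgeR in either. In Sirt2-/-/CE against CE none of the 4 stellate cell markers and 1 of the 4 cholangiocyte markers, with a lower level in Sirt2-/-/CE, passed that threshold. Erythrocyte markers summed to 104 to 585 CPM over all mice and intestine markers to 12.8 to 83.6 CPM. Of those tested, 0 of 3 erythrocyte and 1 of 2 intestine markers passed the threshold in that comparison. The part of these cells in the results was not tested. Xist was close to 0 and Y-linked genes were present in all 20 mice, which are therefore male by their RNA. A pair of these male livers stood apart. Sirt2-/-/CE mouse 20 was the highest of the 20 mice for 6 of 8 female-type liver genes and the lowest for 7 of 11 male-type genes. Control mouse 3 was among the lowest 2 mice for 8 of the 11 male-type genes, but among the highest 2 for only 3 of the 8 female-type genes and among the lowest 2 for 1. The summed female-type level was 966 CPM in mouse 20 and 399 CPM in mouse 3, against 28.5 to 185 CPM in the other mice, and 334 CPM of the sum in mouse 3 was Cyp2a4. These 2 are called mice of female-type pattern below, which holds less fully for mouse 3. By the mean centred log2 CPM of each list, Sirt2-/- mice 14 and 15 came next after them on both lists. Their female-type means were 1.11 and 0.49, against 3.41 in mouse 20 and 1.58 in mouse 3. The male-type means of mice 14 and 15 were -0.75 and -1.04, against -3.29 in mouse 20 and -2.19 in mouse 3. Mice 14 and 15 also belong to the set described next, so the sets are not fully separate. A second set of 4 mice, CE 9, Sirt2-/- 14 and 15 and Sirt2-/-/CE 19, had the lowest clock scores (mean centred log2 CPM of 5 genes, Ciart, Dbp, Nr1d2, Per3 and Tef, after subtraction of that of 3 genes of opposite phase, Arntl, Clock and Npas2), at -4.52, -5.72, -6.48 and -4.69, where the other CE and knockout mice had -0.81 to 2.42 and the Control mice 1.33 to 3.36. Dbp, a clock output gene, was at 71.6 to 99.0 CPM in Control mice and at 0.325 to 66.8 CPM in the other 15. The clock scores of all 5 Sirt2-/-/CE mice, at most 0.865, lay below those of every Control mouse, while CE and Sirt2-/- each overlapped with Control. None of 16 clock and clock output genes was called in any comparison by edgeR. At an unadjusted p under 0.05 there were 3, 3, 1 and 0 of these 16 in the 4 pairwise comparisons, where 10.7%, 14.9%, 7.25% and 6.09% of all genes passed. The part of the clock in the results was not tested beyond the fits named below. Several results below are also given without one of these sets.

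Levels were compared between genes per length, as FPKM (fragments per kilobase of transcript and 1e+06 mapped fragments, the deposited values). Cyp3a11 was by far the most abundant member, with a median of 2030 FPKM over the 20 mice (range 838 to 3382), which ranked 48 among the 15616 genes tested. Cyp3a25 followed at 199 FPKM (131 to 563), Cyp3a13 at 53.4 FPKM (30.9 to 106), Nr1i3 at 42.4 FPKM (21.9 to 86.3) and Nr1i2 at 26.1 FPKM (14.7 to 41.9). Cyp3a11 lay above Cyp3a25, and Cyp3a25 above Cyp3a13, in 20 of 20 mice. Cyp3a13 lay above Nr1i3 in 15 of 20 mice, so these neighbours were not separated, while Nr1i3 lay above Nr1i2 in 19 of 20. Cyp2b10 (median 5.87 FPKM, 0.631 to 43.4) and Cyp2b9 (median 3.96 FPKM, 0.0787 to 101) each led in 10 of the 20 mice. Cyp2b13, Cyp3a16 and Cyp3a41a were above 0 in 12, 1 and 2 mice. Together the 10 genes took 0.298% to 0.986% of all counts of a library.

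**Figure D1:**
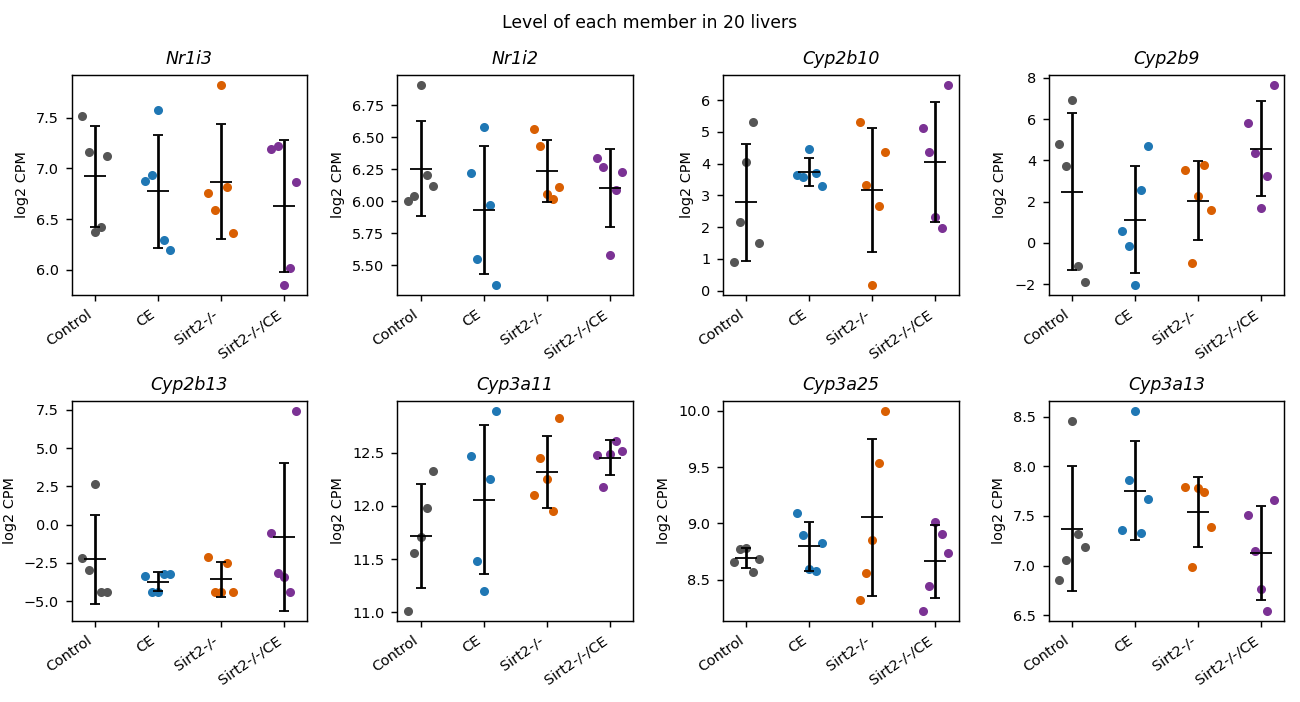
Log2 CPM of 8 members (vertical axes, 1 panel a gene, each with its own scale) in the 4 groups; each point is 1 mouse, and the bars give the mean and SD of 5 mice. Within a group Cyp2b9 spread over 4.77 to 8.79 log2 units and Nr1i2 over 0.54 to 1.23, while Cyp2b10 and Cyp2b13 spread over 1.18 and 1.21 units in CE and over 2.28 to 11.9 in the other groups; a count of 0 sits at -4.41 because of the added prior count.

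In 7 comparisons between groups no tested member was called by edgeR's quasi-likelihood test with Benjamini-Hochberg adjustment over all genes. The comparisons were CE against Control, Sirt2-/- against Control, Sirt2-/-/CE against Sirt2-/-, Sirt2-/-/CE against CE, the interaction of genotype and cold, and each factor averaged over the other. Of the 10 members 7 passed the filter on low counts, which Cyp2b13, Cyp3a16 and Cyp3a41a did not. Few genes of any kind were called by edgeR: in the same order of comparisons the background was 0.0064%, 0.89%, 0%, 0.0128%, 0%, 0.186% and 0% of the 15616 genes, of which genes called higher were 0.384% in Sirt2-/- against Control and 0.0384% in the genotype average. DESeq2 and limma voom called none of the 7 members either. In the same order DESeq2 called 1.08%, 3.89%, 0.0448%, 0.199%, 0.263%, 1.95% and 0.487% of all genes. Voom called 3.46%, 5.8%, 0%, 0.0128%, 0%, 1.68% and 0.307%. At an unadjusted p under 0.05, edgeR had 0, 0, 1, 2, 1, 1 and 0 of the 7 members, DESeq2 0, 1, 2, 2, 1, 1 and 0, and voom 1, 1, 0, 1, 1, 1 and 2, while 10.7%, 14.9%, 7.25%, 6.09%, 8.34%, 13.8% and 9.48% of all genes passed that threshold in edgeR. The same shares were 11.7%, 16.2%, 8.11%, 7.08%, 9.36%, 15.2% and 10.5% in DESeq2 and 20.8%, 23.1%, 6.44%, 7.97%, 13.3%, 18.9% and 14.1% in voom. The median log2 fold change of the 7 members was 0.08, 0.07, -0.13 and 0.12 in the 4 pairwise comparisons, and that of all genes was between -0.01 and 0.02. These comparisons share groups and so are not independent of one another. In none of the 4 pairwise comparisons were the 2 groups of any member free of overlap, which 3.04%, 3.61%, 0.743% and 1.22% of all genes were. In whole liver, fewer cells of a type and less RNA per cell cannot be told apart.

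**Figure D2:**
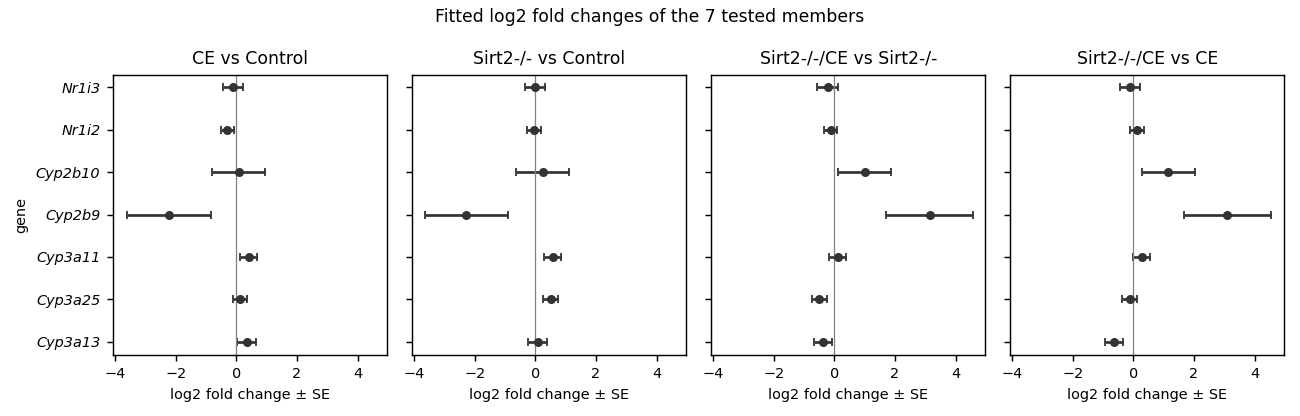
Fitted log2 fold changes (horizontal axis) of the 7 tested members in the 4 pairwise comparisons; points are edgeR estimates and bars their standard errors. The errors of Cyp2b9, 1.38 to 1.43, were several times those of the receptors, 0.222 to 0.334, and the Cyp2b9 estimates lay below 0 in the first 2 panels and above 0 in the last 2.

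The receptor genes varied far less than the Cyp2b genes. Nr1i3, encoding CAR, was at 183, 143, 83.1, 85.6 and 140 CPM in Control mice 1 to 5. In CE mice 6 to 10 it was at 118, 122, 191, 78.3 and 73.4 CPM. The 4 groups overlapped almost fully, because Sirt2-/- mice 11 to 15 had 108, 96.2, 227, 113 and 82.1 CPM and Sirt2-/-/CE mice 16 to 20 had 146, 150, 57.8, 64.6 and 117 CPM. The highest mouse, Sirt2-/- 13, was 3.93 times the lowest, Sirt2-/-/CE 18. The pairwise log2 fold changes were -0.13 ± 0.33 (SE) for CE against Control, -0.02 ± 0.33 for Sirt2-/- against Control, -0.23 ± 0.33 for Sirt2-/-/CE against Sirt2-/- and -0.12 ± 0.33 for Sirt2-/-/CE against CE, with edgeR adjusted p of 0.952, 0.986, 0.958 and 0.978. With each mouse left out in turn, they changed direction in 2, 7, 1 and 3 of 20 fits. The ranges were -0.38 to 0.04, -0.35 to 0.15, -0.40 to 0.10 and -0.30 to 0.13. Their highest values came without Control mouse 1 in both comparisons with Control, without Sirt2-/- mouse 13 in Sirt2-/-/CE against Sirt2-/- and without CE mouse 8 in Sirt2-/-/CE against CE. With the clock score as covariate, CE against Control was 0.21 and Sirt2-/- against Control 0.50.

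Nr1i2, encoding PXR, varied least of the members, with a within-group SD of 0.37 on the log2 CPM scale, below the 0.43 of the median tested gene. Control mice 1 to 5 had 64.0, 65.9, 120, 73.7 and 69.4 CPM, and CE mice 6 to 10 had 74.5, 46.7, 95.8, 62.6 and 40.7 CPM. In Sirt2-/- mice 11 to 15 it was at 94.5, 86.0, 66.4, 64.9 and 68.9 CPM, and in Sirt2-/-/CE mice 16 to 20 at 80.8, 76.9, 47.9, 68.1 and 74.9 CPM. Control mouse 3 had the highest value of all. In all, 3 CE mice lay below the lowest Control mouse, and the log2 fold change of CE against Control was -0.30 ± 0.22 (adjusted p = 0.692). It was -0.09 without Control mouse 3, -0.17 without CE mouse 10 and -0.49 without CE mouse 8. The other pairwise log2 fold changes of Nr1i2 were between -0.13 and 0.12.

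Among the partners and helpers of the receptors, 23 genes that include the RXR subunits, coactivators, corepressors, heat shock protein 90 (which holds CAR in the cytoplasm) and the P450 electron donors Por and Cyb5r3, none was called in any of the 7 comparisons by edgeR. At an unadjusted p under 0.05 there were 3, 5, 1 and 0 of the 23 in the pairwise comparisons, where 10.7%, 14.9%, 7.25% and 6.09% of all genes passed. Por, the reductase that feeds electrons to every microsomal P450, had means of 637 ± 215, 551 ± 224, 517 ± 143 and 596 ± 372 CPM (SD, n = 5) in Control, CE, Sirt2-/- and Sirt2-/-/CE. It is counted among the targets as well. Its largest pairwise log2 fold change in size was -0.30 ± 0.40, in Sirt2-/- against Control (edgeR adjusted p = 0.783).

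Cyp2b10, a P450 of drug and steroid hydroxylation, ranged over 82.1-fold between mice. Control mice 1 to 5 had 1.82, 4.42, 16.7, 39.7 and 2.75 CPM, while CE mice 6 to 10 were close together at 12.4, 11.9, 22, 12.9 and 9.70 CPM. Sirt2-/- mice 11 to 15 had 39.2, 9.90, 1.09, 6.25 and 20.7 CPM, and Sirt2-/-/CE mice 16 to 20 had 34.6, 20.5, 4.99, 3.91 and 89.8 CPM. High and low mice occurred in 3 of the groups, and the CE group lay inside the range of each of them. Its within-group SD of 1.66 on the log2 scale exceeded that of 98.6% of the tested genes. The mean of Sirt2-/-/CE (30.7 CPM) was above that of CE (13.8 CPM) and of Sirt2-/- (15.4 CPM), with log2 fold changes of 1.16 ± 0.89 and 0.99 ± 0.88 and edgeR adjusted p of 0.935 and 0.876. Without mouse 20 these fell to 0.21 and 0.07, the second was 1.70 without Sirt2-/- mouse 11, and limma voom with quality weights gave -0.51 and -0.42.

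Cyp2b9, a P450 with a female-biased pattern in adult liver, ranged over 1035-fold, and its within-group SD of 2.75 exceeded that of 99.8% of the tested genes. Control mice 1 to 5 had 27.5, 13.2, 120, 0.413 and 0.224 CPM, and CE mice 6 to 10 had 1.42, 0.855, 0.198, 5.80 and 26.3 CPM. In Sirt2-/- mice 11 to 15 it was at 11.3, 0.462, 4.76, 13.8 and 3.01 CPM. Sirt2-/-/CE mice 16 to 20 had 56.4, 20.4, 3.21, 9.44 and 205 CPM, of which 3 lay above every Sirt2-/- mouse and 2 above every CE mouse. The group means were 32.3 ± 50.4, 6.91 ± 11.04, 6.67 ± 5.66 and 58.9 ± 84.2 CPM (SD, n = 5), each SD but that of Sirt2-/- larger than its mean.

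The fitted log2 fold changes of Cyp2b9 were the largest of the 7 tested members in size in the 4 pairwise comparisons and the interaction, but not in the averages over genotype or cold. They were -2.23 ± 1.38 in CE against Control and -2.27 ± 1.38 in Sirt2-/- against Control, with edgeR adjusted p of 0.619 and 0.467. In Sirt2-/-/CE the log2 fold change was 3.14 ± 1.43 against Sirt2-/- (unadjusted p = 0.0398, adjusted 0.671 in edgeR) and 3.09 ± 1.43 against CE (unadjusted p = 0.0422, adjusted 0.784 in edgeR). The interaction of genotype and cold was 5.37 ± 1.98, with an edgeR unadjusted p of 0.0136 and an adjusted p of 0.480. Without Control mouse 3 and Sirt2-/-/CE mouse 20 these 5 values became -0.60, -0.64, 1.75, 1.71 and 2.35, the same direction in each case and smaller by more than 1.5-fold. Without CE mouse 10, in turn, CE against Control was -3.94 and Sirt2-/-/CE against CE 4.82. The part of the female-type pattern of these 2 mice in the Cyp2b9 values was not tested.

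Cyp2b13, the near neighbour of Cyp2b9, was almost silent except in the same 2 mice. Its counts were 10, 4, 249, 0 and 0 in Control mice 1 to 5 and 2, 0, 0, 3 and 2 in CE mice 6 to 10. They were 8, 0, 0, 5 and 0 in Sirt2-/- mice 11 to 15 and 26, 3, 2, 0 and 7207 in Sirt2-/-/CE mice 16 to 20. Sirt2-/-/CE mouse 20, at 174 CPM, and Control mouse 3, at 6.14 CPM, were the only livers above 1 CPM. Cyp2a4, a female-biased steroid hydroxylase, had 827 and 334 CPM in these 2 livers and at most 131 CPM in the other 18. Of the male-biased genes, Cyp4a12a had 17.1 and 49.9 CPM there and at least 112 CPM elsewhere.

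**Figure D3:**
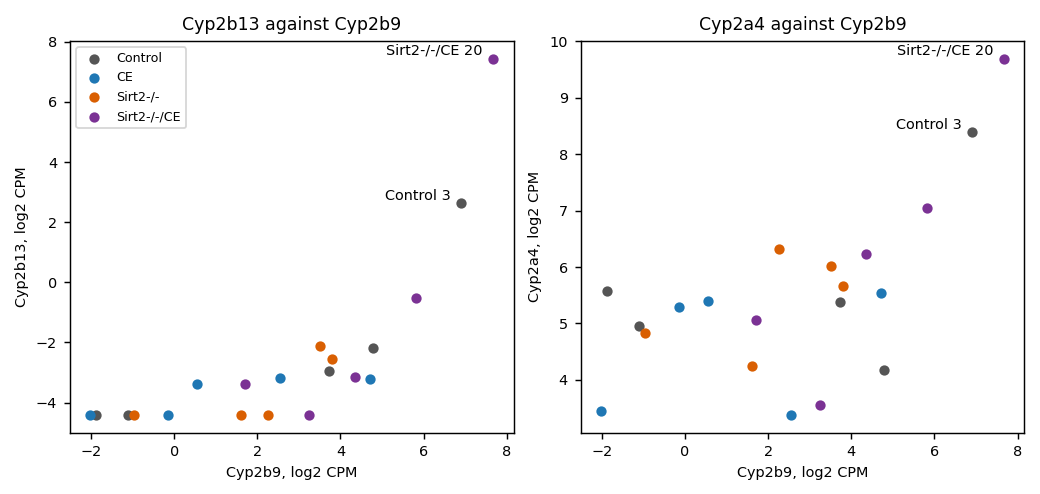
Log2 CPM of Cyp2b13 (left) and of Cyp2a4 (right) on the vertical axes against log2 CPM of Cyp2b9 on the horizontal axes; each point is 1 mouse, coloured by group. Sirt2-/-/CE mouse 20 and Control mouse 3 are at the upper right of both panels, and the Cyp2b13 points at -4.41 are counts of 0.

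Cyp2b9 and Cyp2b13 were correlated over the 20 mice, with Pearson's r = 0.75 and Spearman's rho = 0.87 on the log2 CPM scale. Both had a permutation p of 1e-05, the smallest that 100000 permutations can give, and an adjusted p of 6e-05 over the 6 pairs tested. With group means removed and mice permuted within groups, r was 0.70 (permutation p = 2e-05, adjusted 0.00012) and rho 0.77. Without the 2 mice farthest from the median of Cyp2b9, CE 8 and Sirt2-/-/CE 20, r was 0.76. Without Control 3 and Sirt2-/-/CE 20, r was 0.76 and rho 0.82 over 18 mice (permutation p = 0.00017 and 7e-05, not adjusted), of which 8 had no Cyp2b13 count and none had more than 26. Most Cyp2b13 counts behind this were below 10, and 1.18% of 100-base windows are common to both transcripts.

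The other 5 pairs showed no relation past the threshold. Over the 20 mice, r was -0.21 for Nr1i3 and Cyp2b10 (permutation p = 0.365), -0.22 for Nr1i2 and Cyp3a11 (permutation p = 0.341), 0.24 for Nr1i2 and Nr1i3 (permutation p = 0.309), 0.17 for Cyp2b10 and Cyp3a11 (permutation p = 0.485) and 0.29 for Nr1i3 and the clock output gene Dbp (permutation p = 0.220). In the same order rho was -0.09, -0.11, 0.25, 0.07 and 0.26, with permutation p of 0.707, 0.647, 0.292, 0.774 and 0.271. The adjusted p of these r was 0.438 to 0.485. Within groups r was -0.16, -0.24, 0.22, 0.05 and 0.30, with permutation adjusted p of 0.643 to 0.818. Without the 2 mice farthest from the median of the first gene, r was -0.10, 0.06, 0.30, 0.15 and 0.34. A relation between the mRNA of either receptor and that of its classical target was thus not detected among these mice. Cyp3a16 and Cyp3a41a were at 0 in nearly all mice, and no correlation was computed for them.

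The make-up of the Cyp2b reads differed widely between mice of 1 group. Cyp2b9 took 93.2%, 74.6% and 84.1% of the Cyp2b reads in Control mice 1 to 3 but 1.03% and 7.52% in Control mice 4 and 5, where Cyp2b10 took the rest. In CE mice it took 0.892% to 72.9%, in Sirt2-/- mice 4.46% to 81.3% and in Sirt2-/-/CE mice 39.0% to 70.7%. Cyp2b13 took 37.1% of the Cyp2b reads in Sirt2-/-/CE mouse 20, 4.30% in Control mouse 3 and less than 1% in the others. The summed Cyp2b level was 46.6 ± 55.6, 20.7 ± 9.36, 22.1 ± 17.5 and 125 ± 195 CPM (SD, n = 5) in Control, CE, Sirt2-/- and Sirt2-/-/CE, with the highest mouse at 469 CPM. Without Sirt2-/-/CE mouse 20 its group had 38.5 ± 38.2 CPM, and without Control mouse 3 its group had 22.6 ± 15.9 CPM (SD, n = 4).

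**Figure D4:**
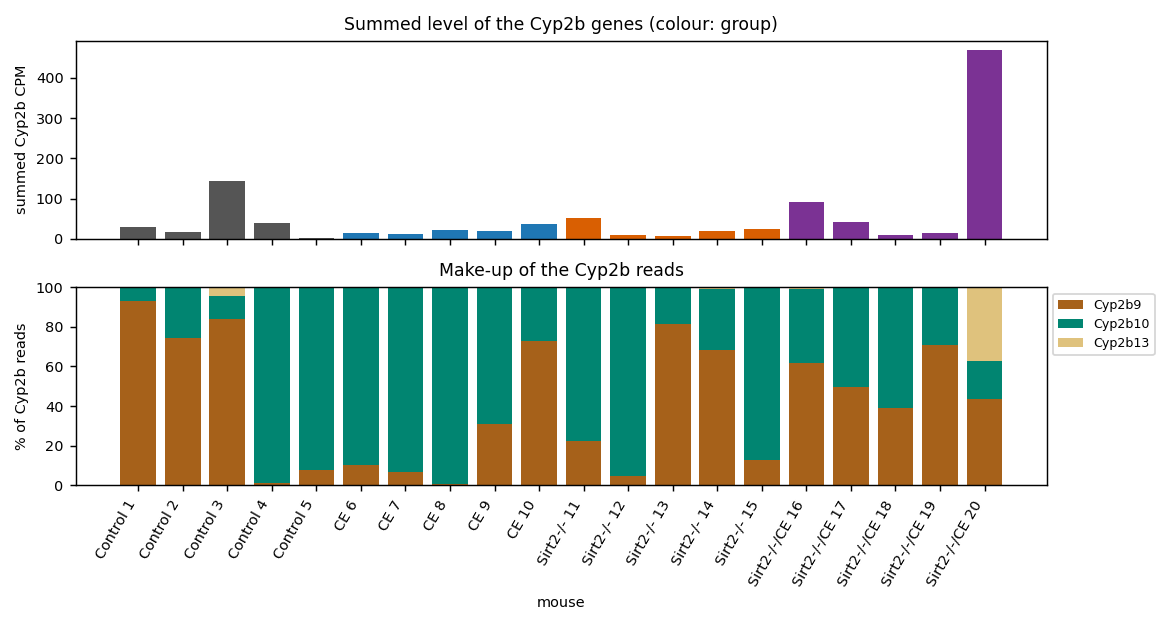
Upper panel, summed CPM of the Cyp2b genes in each of the 20 mice, coloured by group; lower panel, the percentage of the Cyp2b reads of each mouse that Cyp2b9, Cyp2b10 and Cyp2b13 took. Sirt2-/-/CE mouse 20 has the tallest bar, 469 CPM, and is the mouse in which Cyp2b13 took 37.1%.

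Cyp3a11, the main drug-metabolising P450 of mouse liver, had a lower mean in Control than in the other 3 groups, although no comparison passed the adjusted threshold. Control mice 1 to 5 had 2067, 3008, 3345, 4044 and 5130 CPM, and CE mice 6 to 10 had 5669, 2855, 2355, 4893 and 7610 CPM. Sirt2-/- mice 11 to 15 had 4405, 5599, 4866, 3971 and 7242 CPM, and Sirt2-/-/CE mice 16 to 20 had 5709, 4640, 5744, 6268 and 5846 CPM. All 5 Sirt2-/- mice lay above the Control mean, and 2 of them above the highest Control mouse, and the Sirt2-/-/CE mice were the closest together. The means were 3519 ± 1148, 4677 ± 2142, 5217 ± 1283 and 5642 ± 603 CPM (SD, n = 5).

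The log2 fold change of Cyp3a11 was 0.57 ± 0.28 in Sirt2-/- against Control (unadjusted p = 0.0540, edgeR adjusted p = 0.345) and 0.27 ± 0.28 in Sirt2-/-/CE against CE (edgeR adjusted p = 0.9505). Averaged over both treatments the genotype difference was 0.42 ± 0.20, with an unadjusted p of 0.0448 and an adjusted p of 0.347 in edgeR. In the same average the median log2 fold change was 0.58 for the 3 Kupffer cell markers and 0.84 for the 3 endothelial markers, and their part in the Cyp3a11 value was not tested. CE against Control gave 0.41 ± 0.28 and Sirt2-/-/CE against Sirt2-/- gave 0.11 ± 0.28, and the interaction was -0.30 ± 0.39, with edgeR adjusted p of 0.654, 0.981 and 0.903. The lowest adjusted p of any member under any setting was 0.0705, for Cyp3a11 in Sirt2-/- against Control by limma voom with quality weights, where the log2 fold change was 0.81. Leaving out 1 mouse at a time gave 0.42 to 0.74 for that comparison in edgeR. In the same way CE against Control ranged from 0.16, without CE mouse 10, to 0.58, Sirt2-/-/CE against CE from 0.11, without CE mouse 8, to 0.52, without CE mouse 10, and Sirt2-/-/CE against Sirt2-/- from 0.03, without Sirt2-/- mouse 14, to 0.25, without Sirt2-/- mouse 15. The interaction ranged from -0.46, without Control mouse 5, to -0.04, without CE mouse 10.

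Cyp3a25, the second most abundant member, was steady in Control mice at 404, 438, 440, 379 and 410 CPM. CE mice 6 to 10 had 544, 478, 385, 381 and 455 CPM, and Sirt2-/-/CE mice 16 to 20 had 299, 347, 516, 479 and 426 CPM. In the Sirt2-/- group mice 11 to 13 had 319, 377 and 461 CPM while mice 14 and 15 had 742 and 1023 CPM. These last 2 livers were the highest of all 20 and also those of lowest clock score, with Dbp at 0.325 and 0.359 CPM where Control mice had 71.6 to 99.0 CPM. By mean log2 CPM they also ranked 3 and 4 from the highest for female-type genes and 17 and 18 for male-type genes. The part of either pattern in these Cyp3a25 values was not tested. Sirt2-/-/CE mouse 19 and CE mouse 9, the next lowest in clock score, had 479 and 381 CPM of Cyp3a25, inside the range of the other mice.

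The log2 fold change of Cyp3a25 was 0.50 ± 0.24 in Sirt2-/- against Control and -0.50 ± 0.24 in Sirt2-/-/CE against Sirt2-/-, with unadjusted p of 0.0554 and 0.0544 and edgeR adjusted p of 0.349 and 0.690. Both comparisons share the Sirt2-/- mice. Without mouse 15 alone they were 0.19 and -0.21. Without the 4 mice of lowest clock score the values were -0.10 and 0.03, and with the clock score as a covariate -0.05 and -0.34. Voom, which weights down deviating libraries, gave 0.03 and 0.09. Cyp3a59, with which Cyp3a25 shares 6.05% of its 100-base windows, was also highest in Sirt2-/- mouse 15, at 96.1 CPM against 12.2 to 53.9 CPM in the other 19 mice.

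**Figure D5:**
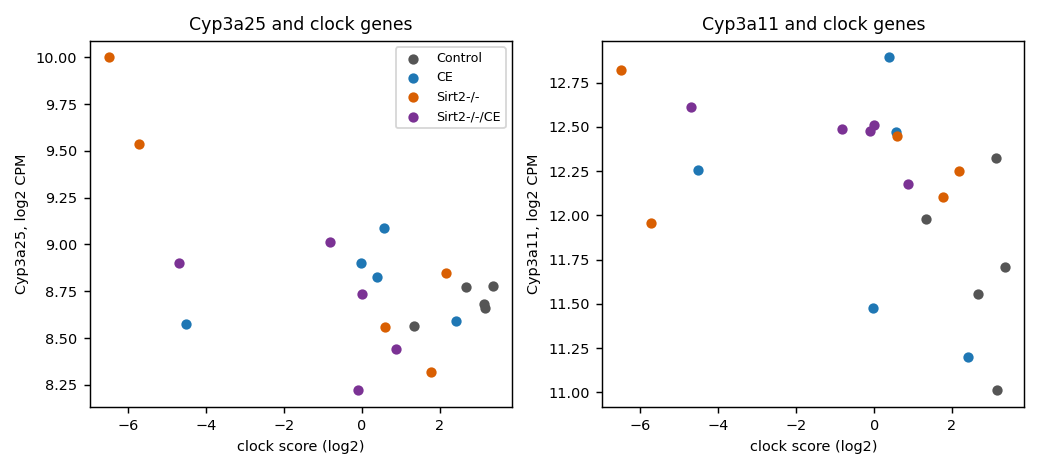
Log2 CPM of Cyp3a25 (left) and Cyp3a11 (right) on the vertical axes against the clock score on the horizontal axes; each point is 1 mouse, coloured by group. The 2 Sirt2-/- mice at the far left, with scores of -6.48 and -5.72, hold the 2 highest Cyp3a25 levels, 1023 and 742 CPM, but only one of them is among the highest for Cyp3a11.

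Cyp3a13, a P450 also expressed in the intestine, was at 115, 133, 352, 159 and 145 CPM in Control mice 1 to 5 and at 165, 232, 377, 160 and 204 CPM in CE mice 6 to 10. Sirt2-/- mice 11 to 15 had 221, 127, 220, 214 and 168 CPM, and Sirt2-/-/CE mice 16 to 20 had 182, 142, 109, 93.3 and 202 CPM. Control mouse 3 again stood far above its group. All 5 Sirt2-/-/CE mice lay below the CE mean of 228 CPM and 3 lay below the lowest CE mouse. The log2 fold change of Sirt2-/-/CE against CE was -0.64 ± 0.30 (unadjusted p = 0.0459, edgeR adjusted p = 0.804). Leaving out 1 mouse at a time gave -0.79 to -0.38, the last without CE mouse 8. In CE against Control it was 0.33 ± 0.30, with 0.72 without Control mouse 3 and 0.07 without CE mouse 8 (edgeR adjusted p = 0.768 with all mice).

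The 2 remaining Cyp3a members were close to absent. Cyp3a16, a P450 of fetal and female liver, had 353 counts in Sirt2-/- mouse 14, which is 8.82 CPM, and 0 counts in each of the other 19 mice. Its transcript shares 0.123% of its 100-base windows with another P450, Cyp3a11. Cyp3a41a had 4 and 3 counts in CE mice 9 and 10 and 0 elsewhere. No fold is given for either gene. The summed Cyp3a level followed Cyp3a11, at 4138 ± 1155, 5391 ± 2126, 6035 ± 1482 and 6243 ± 655 CPM (SD, n = 5) in Control, CE, Sirt2-/- and Sirt2-/-/CE.

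Among other known targets of CAR and PXR, 38 of 40 genes were tested, and 3 were called in Sirt2-/- against Control and 0 in the other 6 comparisons by edgeR. Gstt1, a glutathione S-transferase, and Cyp2c54, an arachidonic acid epoxygenase, fell, and Ugt1a9, a glucuronosyltransferase, rose, in a comparison that called 0.384% of all genes as higher and 0.506% as lower. At an unadjusted p under 0.05 there were 11 of 38 (3 higher, 8 lower) in that comparison, where 14.9% of all genes passed. In CE against Control, Sirt2-/-/CE against Sirt2-/- and Sirt2-/-/CE against CE there were 4, 10 and 5 of 38, where 10.7%, 7.25% and 6.09% of all genes passed. Of these 0, 9 and 5 were higher. In the interaction, the genotype average and the cold average there were 10, 11 and 4 of 38, of which 9, 4 and 3 were higher. There 8.34%, 13.8% and 9.48% of all genes passed. The median log2 fold change of the 38 was -0.17, -0.35, 0.30 and 0.19 in the 4 pairwise comparisons, and the 2 comparisons of opposite sign around Sirt2-/- share those 5 mice.

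Gstt1 was at 225, 198, 236, 169 and 211 CPM in Control mice and at 114, 100, 112, 132 and 98.5 CPM in Sirt2-/- mice. The groups did not overlap. The difference was -0.90 ± 0.20 on the log2 scale, with an adjusted p of 0.0407 in edgeR. Cyp2c54 was at 416, 440, 379, 317 and 340 CPM in Control mice and at 279, 216, 236, 171 and 113 CPM in Sirt2-/- mice. These groups did not overlap either. The estimate was -0.90 ± 0.21 on the log2 scale, with an adjusted p of 0.0462 in edgeR, and the lowest 2 mice were 14 and 15, of lowest clock score. Its reads can be shared with the other Cyp2c genes. Ugt1a9 was at 105, 70.2, 93.5, 102 and 95.9 CPM in Control mice and at 117, 125, 200, 255 and 250 CPM in Sirt2-/- mice. Its log2 difference was 1.02 ± 0.24, without overlap of the groups and with an adjusted p of 0.0472 in edgeR. The highest 2 mice were again 14 and 15, of lowest clock score. Its reads can be shared with the other Ugt1a genes, whose last exons are common. In Sirt2-/-/CE against CE the log2 fold changes of Gstt1, Cyp2c54 and Ugt1a9 were 0.28, 0.08 and 0.09 (edgeR adjusted p = 0.935, 0.978 and 0.976). In Sirt2-/-/CE against Sirt2-/- they were 0.87, 0.65 and -0.47 (edgeR adjusted p = 0.503, 0.559 and 0.704).

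These 3 calls were close to the threshold. Without the 2 mice of female-type pattern, and without the 4 mice of lowest clock score, none of the 38 targets was called by edgeR in Sirt2-/- against Control, where 29 of 15744 and 0 of 15982 genes were called in all. With no gene called, the second 0 says nothing about the targets. The log2 fold changes of Gstt1, Cyp2c54 and Ugt1a9 were then -0.86, -0.91 and 1.02, and -0.93, -0.63 and 0.66. DESeq2 called 9 and voom 7 of the 38, where they called 3.89% and 5.8% of all genes. With 1 mouse left out the count was 0 to 5: it was 0 without Control 1, 2, 3 or 5, CE 7, or Sirt2-/- 12, 14 or 15, it was 1 without CE 6, CE 9 or Sirt2-/-/CE 17, and it was 5 without Sirt2-/- 13. The calls over all genes moved in the same fits: 5 to 56 genes were called where the count was 0, 92 to 113 where it was 1, and 375 of 15886 without Sirt2-/- 13.

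The genes whose pattern over the 20 mice was most like that of a member were sought by Pearson's r of log2 CPM among 10398 annotated genes, as a description without a test. For Nr1i3 they were Cdk18 (r = 0.82), Abcb6 (0.79), 0610005C13Rik (0.79), Dclre1a (0.75) and Pla2g6 (0.73). For Nr1i2 they were Cpsf3 (r = 0.79), Errfi1 (0.78), Plin4 (0.71), Ncl (0.70) and Phykpl (0.70). For Cyp2b10 they were Ddost (r = 0.79), Pole4 (0.77), Arf4 (0.76), Rbm12b1 (0.75) and Chd1l (0.74), and for Cyp3a11 Galnt10 (r = 0.75), Sympk (0.73), Pdss2 (0.72), Ehd4 (0.71) and Slc1a4 (0.71). None of these lists held a gene of the partner or target lists. All points share their library, depth and group.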

How the data were processed

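The deposited table, per the file headers, gives raw read counts and FPKM for each gene and library; the authors' aligner, counter and strand setting are not given in the sources used here. Counts of 20 libraries were scaled by TMM and fitted in edgeR 4.0.16 (quasi-likelihood test, group as the only term, common dispersion 0.147) after a filter on low counts (filterByExpr, minimum 10) that kept 15616 of 45306 genes. P-values were adjusted by Benjamini-Hochberg over all tested genes with a threshold of 0.05. Log2 CPM used a prior count of 2. The members and lists were chosen with earlier results of these data known. Named genes were the members, up to 4 called genes a list, the 5 genes most like each of 4 members, and Sirt2. Outside this rule, values of Por, Dbp, Cyp2a4, Cyp4a12a and the other Cyp2b and Cyp3a paralogs were chosen after they were seen. Alternatives were DESeq2 1.42.0, limma 3.58.1 voom with quality weights, 2 other scalings, 2 other filters, the clock score as covariate, each mouse left out, and 2 groups alone. A further 2 sets of mice were left out after seeing the data. No pair among 190 of libraries was alike within sampling noise (lowest median chi-square 4.43, noise 0.455). The code was tested on simulated data. Transcripts came from GENCODE vM21 and promoters from RefSeq, matched by symbol for 10 of 10 members, and were aligned with blastn 2.17.0. A line without a gene occurred 9 times and was dropped. A gene of the female-type list is not reported here.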

Additional observations from a re-analysis of the deposited data

Results flagged for a closer look

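Of the 34 sets of 5 mice with any count of a member, 10 held a mouse that stood apart from its group by Dixon's test (a gap to the nearest mouse above 0.71 of the group's range), which chance gives in about 1 of 20 sets of normally distributed values. The CPM of these genes is skewed, so that rate does not apply to them as it stands. On the log2 CPM scale 3 of the 10 were still above 0.71 (Nr1i2 and Cyp3a13 in Control mouse 3, the latter at 0.711, and Cyp3a16, whose other 4 values are 0) and 7 were not. Control mouse 3 did so for 4 members: Nr1i2 at 120 CPM against 64.0 to 73.7 CPM in the other 4 mice, Cyp2b9 at 120 CPM against 0.224 to 27.5 CPM, Cyp2b13 at 6.14 CPM against 0 to 0.175 CPM, and Cyp3a13 at 352 CPM against 115 to 159 CPM. Sirt2-/-/CE mouse 20 did so for Cyp2b9 at 205 CPM against 3.21 to 56.4 CPM and for Cyp2b13 at 174 CPM against 0 to 0.645 CPM. Sirt2-/- mouse 13 stood apart for Nr1i3 at 227 CPM against 82.1 to 113 CPM, and Sirt2-/- mouse 14 for Cyp3a16 at 8.82 CPM against 0 in the other 4. CE mouse 10 stood apart for Cyp2b9 at 26.3 CPM against 0.198 to 5.80 CPM, and CE mouse 8 for Cyp2b10 at 22 CPM against 9.70 to 12.9 CPM. None of the 7 members tested was called in edgeR's interaction of genotype and cold. That comparison called 0 of 15616 genes, so this result says nothing about the members.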

How the results depend on the processing

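No member passed the adjusted threshold under any of 10 other settings (462 values, 31 turned in direction) or with 1 mouse left out (980 values, 51 turned). Turned log2 fold changes were as follows, and the cause was not tested. With the clock score as covariate, Nr1i3 was 0.21 in CE against Control, 0.50 in Sirt2-/- against Control and 0.23 in the genotype average, Nr1i2 0.14 in Sirt2-/- against Control, Cyp3a25 -0.17, -0.052 and -0.14 in the same 3 comparisons as Nr1i3, and Cyp3a13 0.026 in the cold average. Without the 4 mice of lowest clock score, a choice made after seeing the data, Nr1i3 was 9.7e-05, 0.18 and 0.026 in those 3 comparisons, Nr1i2 0.069 in Sirt2-/- against Control, Cyp3a25 -0.10 there, 0.026 in Sirt2-/-/CE against Sirt2-/-, -0.18 in the genotype average and 0.10 in the cold average, and Cyp3a13 0.088 in the cold average. Without the 2 mice of female-type pattern, also chosen after seeing the data, Nr1i2 was 0.15 in Sirt2-/- against Control and -0.057 in the interaction, Cyp2b10 -0.12 in the interaction and Cyp3a13 0.10 in the cold average. By voom, Nr1i2 was 0.21 in Sirt2-/- against Control and -0.093 in the interaction, Cyp3a25 0.090 in Sirt2-/-/CE against Sirt2-/- and 0.11 in the cold average, and Cyp2b10 -0.42, -0.51 and -1.94 in Sirt2-/-/CE against Sirt2-/-, Sirt2-/-/CE against CE and the interaction. With library size alone, Nr1i3 was 0.082 and Nr1i2 0.11 in Sirt2-/- against Control, and Nr1i3 0.031 in the genotype average.

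With 1 mouse left out, Nr1i3 ranged from -0.38 to 0.044 in CE against Control, -0.35 to 0.15 in Sirt2-/- against Control, -0.40 to 0.10 in Sirt2-/-/CE against Sirt2-/-, -0.30 to 0.13 in Sirt2-/-/CE against CE, -0.28 to 0.23 in the interaction and -0.23 to 0.051 in the genotype average. Nr1i2 ranged from -0.14 to 0.15 in Sirt2-/- against Control, -0.0067 to 0.31 in Sirt2-/-/CE against CE, -0.028 to 0.37 in the interaction and -0.030 to 0.13 in the genotype average. Cyp2b10 ranged from -0.21 to 1.11 in CE against Control, -0.46 to 1.26 in Sirt2-/- against Control and -0.10 to 1.62 in the interaction, Cyp2b9 from -0.28 to 1.27 in the genotype average and -0.39 to 1.28 in the cold average, and Cyp3a13 from -0.055 to 0.45 in Sirt2-/- against Control and -0.15 to 0.17 in the cold average.

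Of the other CAR and PXR targets, edgeR called 3 in Sirt2-/- against Control, DESeq2 9, voom 7, and 0 with upper-quartile scaling, with no filter on low counts, with the clock score as covariate, and without either set of mice. In edgeR 4 of 38 were called with library size alone, where 419 of 15616 genes were called in all. With at least 10 counts in every library 4 of 36 were called (209 of 12267 genes), and with the 2 groups alone 2 of 38 (29 of 14834 genes). The shares of all genes called were 0.89% by edgeR, 3.89% by DESeq2, 5.8% by voom and 0.704% with upper-quartile scaling. In the other fits with no target called, all genes called were 35 of 25919 with no filter, 0 of 15616 with the covariate, 29 of 15744 without the 2 mice and 0 of 15982 without the 4, so 2 of these zeros say nothing about the targets. With 1 mouse left out it called 0 to 5. The correlation of Nr1i2 and Cyp3a11 turned to 0.056 without the 2 farthest mice. Cyp2b9 could not be tested with at least 10 counts in every library, and Cyp2b13, Cyp3a16 and Cyp3a41a were too low to test. No paired analysis was possible because the replicate numbers, 1 to 20, are not shared between groups.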

Other observations

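Of the 6 remaining Cyp2b and Cyp3a paralogs, Cyp3a59 was at 12.2 to 96.1 CPM and the other 5 were at 21.8 CPM or less in every mouse. Cyp2b23 and Cyp3a57 had no count in any of the 20 mice, and Cyp2b19, a P450 of skin, was above 0 only in Sirt2-/-/CE mouse 20, at 0.121 CPM. Cyp3a44, a female-biased P450, was highest in that mouse, at 21.8 CPM, followed by Sirt2-/- mouse 15 at 9.85 CPM, with at most 2.69 CPM in the other 18. Cyp3a41b, which shares most of its transcript with Cyp3a41a, was at 0 to 6.28 CPM and was highest in CE mouse 9. Cyp3a41b was not highest in either mouse of female-type pattern, where it had 0.173 and 2.56 CPM. The 3 paralogs tested were not called in any of the 7 comparisons by edgeR, with none at an unadjusted p under 0.05.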
